A study of Mus musculus with 21 samples.

Results

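Among the genes of the mouse mitochondrial genome, the 2 ribosomal RNAs (rRNAs) mt-Rnr1 and mt-Rnr2 and the 6 messenger RNAs (mRNAs) COX1, COX2, COX3, ATP6, ATP8 and CYTB are described here. They are 8 of the 27179 genes in the count tables and 8 of the 15 genes of the mitochondrial genome listed there, the other 7 being the mRNAs of complex I. They were chosen by their place in the genome, after a lower mitochondrial share of the counts had been seen in the MCC950-treated libraries of these data. The measurements of MCC950-treated against saline-treated or young mice are therefore given as a description of the 8 genes, and no test of them is read. RNA was sequenced from kidney cells of individual male wildtype C57BL/6J mice. The 3 groups were 6 young untreated mice of 4 months, 7 middle-aged mice of 19.5 months given saline, and 8 middle-aged mice of 19.5 months given MCC950, an inhibitor of the NLRP3 inflammasome (NLRP3i), at 10 mg/kg by intraperitoneal injection for 6 weeks from 18 months of age. The young mice were not injected, so age and injection cannot be told apart in the comparison with age. Cells of the digested kidney cortex were bound with antibodies to nephrin, a podocyte surface protein, and collected on magnetic columns as the podocyte fraction.

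The mitochondrial genome is read from both strands into long precursor RNAs, which are cut mostly at the transfer RNAs that lie between the other genes. The rRNAs form the mitochondrial ribosome, and the mRNAs encode core subunits of the respiratory chain, which are made by that ribosome and joined to subunits imported from the cytosol. COX1, COX2 and COX3 form the catalytic core of cytochrome c oxidase (complex IV), CYTB is the core of complex III, and ATP6 and ATP8 are subunits of the membrane part of ATP synthase (complex V). Podocytes and, to a larger extent, the proximal tubule rely on these complexes for ATP. The rRNAs are copied by the same polymerase as the mRNAs.

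All 8 genes lie on the plus strand of the annotation (GRCm38), with mt-Rnr1 at MT:70-1024, mt-Rnr2 at MT:1094-2675, COX1 at MT:5328-6872, COX2 at MT:7013-7696, ATP8 at MT:7766-7969, ATP6 at MT:7927-8607, COX3 at MT:8607-9390 and CYTB at MT:14145-15288. None has introns. ATP8 and ATP6 are carried on 1 mRNA and their coding sequences overlap by 43 bases, which are 21.1% of the 204 bases of ATP8 and 6.31% of ATP6, and 161 bases of ATP8 are outside ATP6. A read in the shared bases can be given to either gene, to both or to neither, and the setting used for counting is not given in the sources used here. The sequence of ATP8 is shown because the ratio of these 2 genes differed between groups, with the bases shared with ATP6 in capitals, and begins with the start codon of ATP8 while the capitals begin with that of ATP6 (GENCODE M21, GRCm38, plus strand, MT:7766-7969).
ATP8: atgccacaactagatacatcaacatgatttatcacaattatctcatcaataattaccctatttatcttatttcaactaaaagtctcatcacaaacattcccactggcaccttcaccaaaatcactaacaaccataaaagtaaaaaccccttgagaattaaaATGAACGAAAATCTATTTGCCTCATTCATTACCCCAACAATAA

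The ends of the mRNAs also differ. COX3 has 784 bases and CYTB has 1144, and neither is a multiple of 3, since their last base is the first base of a stop codon that is completed by the poly(A) tail. COX1 and COX2 end in a whole stop codon. The last 30 bases of each are shown, with the stop codon or its first base in capitals (COX1 at MT:6843-6872, COX2 at MT:7667-7696, COX3 at MT:9361-9390 and CYTB at MT:15259-15288).
COX1: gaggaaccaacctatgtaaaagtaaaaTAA
COX2: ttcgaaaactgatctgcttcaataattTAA
COX3: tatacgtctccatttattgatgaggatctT
CYTB: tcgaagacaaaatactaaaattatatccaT
The mRNAs carry poly(A) tails in the mitochondrion, while the tails of the rRNAs are short. The longest run of A inside the genes was 7 bases, in COX1 and in mt-Rnr2. ATP8 had the lowest share of G and C (31.9%), against 35.4% to 39.9% in the others.

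Nuclear copies of mitochondrial DNA touch 4 of the members. On chromosome 1 GENCODE annotates Gm28661 (1:24614885-24615565), Gm10925 (1:24613974-24614651) and Gm28437 (1:24613189-24613971), all on the minus strand, which were identical to COX2 over 681 bases, to ATP6 over 678 bases and to COX3 over 783 bases. Gm29216 (1:24615706-24616197) differed from COX1 at 1 of 483 aligned bases. None of these copies is a named row of the count tables. How reads that align to both places were counted is not given in the sources used here, so the values of COX1, COX2, COX3 and ATP6 are uncertain in that respect.

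The libraries held 27375870 to 36827823 counts in young, 45772937 to 84876399 in saline-treated and 35440472 to 58247271 in MCC950-treated mice. Every saline-treated library was thus deeper than every young one, and depth, like injection, cannot be told apart from age in that comparison. Genes of the mitochondrial genome took 51.5% to 80.4% of the counts in young, 63.0% to 79.2% in saline-treated and 49.9% to 63.7% in MCC950-treated libraries. Young replicate 1 stood apart, with 51.5% against 67.3% or more in the other young libraries, and saline replicate 7 was highest in its group. The label podocyte was checked with 12 markers of podocytes, all of which had counts in every library. Their summed level was 2182 to 4906 counts per 1000000 counts outside the mitochondrial genome in young, 788 to 1542 in saline-treated and 939 to 1721 in MCC950-treated libraries. The sum of 14 proximal tubule markers was larger in each of the 21 libraries, at 6869 to 29651, 7569 to 17688 and 9816 to 28583. In RNA from a mixture of cells, fewer cells of a type and less RNA per cell cannot be told apart.

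The 8 genes together took a mean of 46.2% ± 6.71 (SD, n = 6) of all counts in young, 48.2% ± 3.82 (n = 7) in saline-treated and 40.0% ± 3.19 (n = 8) in MCC950-treated libraries. Nearly all of this was mRNA, with 45.5% ± 6.65, 47.7% ± 3.80 and 39.3% ± 3.14 for the 6 mRNAs. The 2 rRNAs took 0.719% ± 0.239 in young, 0.511% ± 0.100 in saline-treated and 0.720% ± 0.170 in MCC950-treated libraries. Within the counts of the mitochondrial genome, the share of the 8 genes was 65.9% to 67.6% in young, 68.3% to 70.4% in saline-treated and 70.1% to 71.6% in MCC950-treated libraries. Young and saline-treated libraries did not overlap in that share, and saline replicate 2 was the only saline-treated library within the range of the MCC950-treated ones.

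Levels between genes were compared as counts per kilobase per 1000000 counts of the library. COX1 was highest in all 21 libraries, with a median of 131083, followed by CYTB (88871), COX2 (72280), COX3 (65892), ATP6 (51012), ATP8 (5693), mt-Rnr1 (3106) and mt-Rnr2 (2185). The order of COX1 over CYTB, CYTB over COX2, COX3 over ATP6, ATP6 over ATP8 and mt-Rnr1 over mt-Rnr2 was the same in 21 of 21 libraries. COX2 was above COX3 in 19 of 21, with a median ratio of 1.08. ATP8 was above mt-Rnr1 in all 6 young and all 7 saline-treated libraries but in 2 of the 8 MCC950-treated ones. Although ATP6 and ATP8 are on 1 mRNA, the level of ATP6 per length was 4.32 to 18.4 times that of ATP8. The rRNAs had the lowest medians per length of the 15 genes, whereas they are the more abundant class in total cellular RNA. The study names mRNA sequencing with TruSeq RNA Library Prep Kits, and does not state whether polyadenylated RNA was selected. The rRNA counts, and the ratios that use them, may depend on that step, which was not tested.

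**Figure D1:**
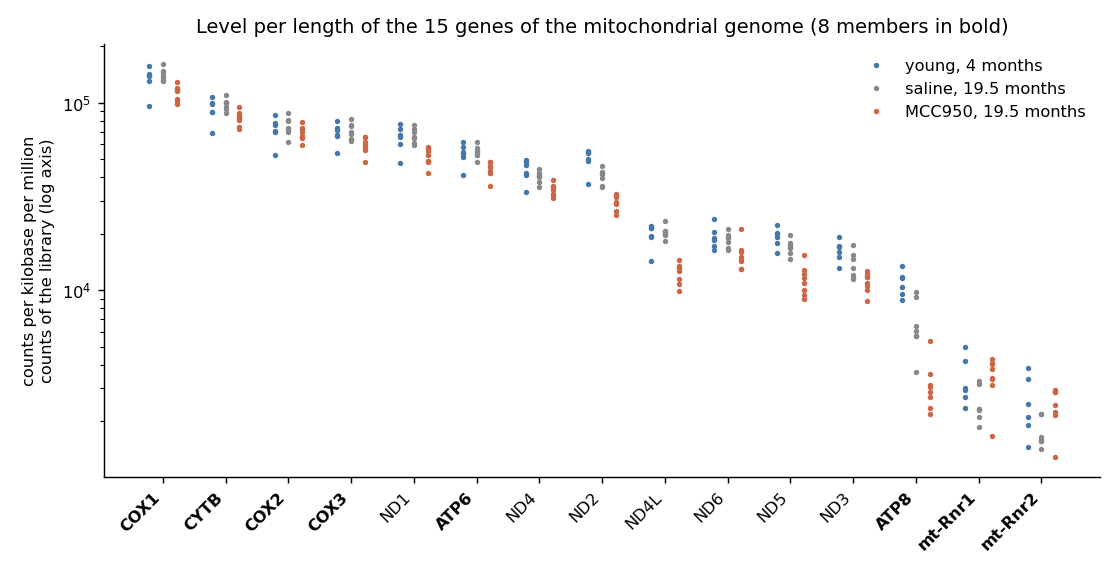
Level of the 15 genes of the mitochondrial genome in counts per kilobase per 1000000 counts of the library (log axis), with 1 point per library and the groups side by side in colour. COX1 is highest with a median of 131083, and ATP8, mt-Rnr1 and mt-Rnr2 lie lowest with medians of 5693, 3106 and 2185.

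To compare groups, counts were set against the counts outside the mitochondrial genome of the same library. mt-Rnr1, the rRNA of the small ribosomal subunit, had 4.62 (lowest), 11.6 (median) and 14.6 (highest) counts per 1000 in young, 5.07, 7.57 and 15.1 in saline-treated and 3.50, 7.77 and 11.3 in MCC950-treated libraries. mt-Rnr2, the rRNA of the large subunit, had 4.76, 15.003 and 19.8 in young, 6.92, 8.46 and 16.6 in saline-treated and 4.46, 9.18 and 12.8 in MCC950-treated libraries. All 3 groups overlapped for both rRNAs, and young replicate 1 was the lowest young library and saline replicate 7 the highest saline-treated library in each.

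COX1, which holds the oxygen-binding site of complex IV, had 305, 755 and 1243 counts per 1000 counts outside the mitochondrial genome (lowest, median and highest) in young, 554, 674 and 1200 in saline-treated and 309, 428 and 546 in MCC950-treated libraries. The 8 MCC950-treated libraries were all below the 7 saline-treated ones, and the young libraries spanned both. On the scale used later (log2 CPM) COX1 overlapped, with 7 of the 8 MCC950-treated libraries below all saline-treated ones. COX2, which receives electrons from cytochrome c, had 73.96, 175 and 301 in young, 113.8, 159 and 291 in saline-treated and 80.9, 110 and 148 in MCC950-treated libraries. COX3, the third core subunit, had 87.1, 192 and 318 in young, 133, 175 and 307 in saline-treated and 75.4, 105.6 and 134 in MCC950-treated libraries. Saline-treated and MCC950-treated libraries overlapped in COX2 and, by 1 library on each side, in COX3.

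ATP6, which forms the proton path of ATP synthase, had 58.0, 128 and 215 counts per 1000 in young, 88.6, 118 and 202 in saline-treated and 49.0, 68.1 and 86.1 in MCC950-treated libraries. ATP8, a small subunit that helps to hold the stator of the enzyme, had 3.72, 7.93 and 12.1 in young, 2.58, 3.76 and 9.04 in saline-treated and 0.886, 1.505 and 2.41 in MCC950-treated libraries. CYTB, which carries the quinone sites of complex III, had 163, 378 and 624 in young, 273, 351 and 604 in saline-treated and 169, 226 and 299 in MCC950-treated libraries. For ATP8 every MCC950-treated library was below every other library, and in ATP6 the MCC950-treated and saline-treated libraries did not overlap, while the highest MCC950-treated library in CYTB was above the lowest saline-treated one. In log2 CPM ATP6 overlapped between these 2 groups, with 7 of the 8 MCC950-treated libraries below all saline-treated ones. The share of all genes that separate was not taken for counts per 1000.

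**Figure D2:**
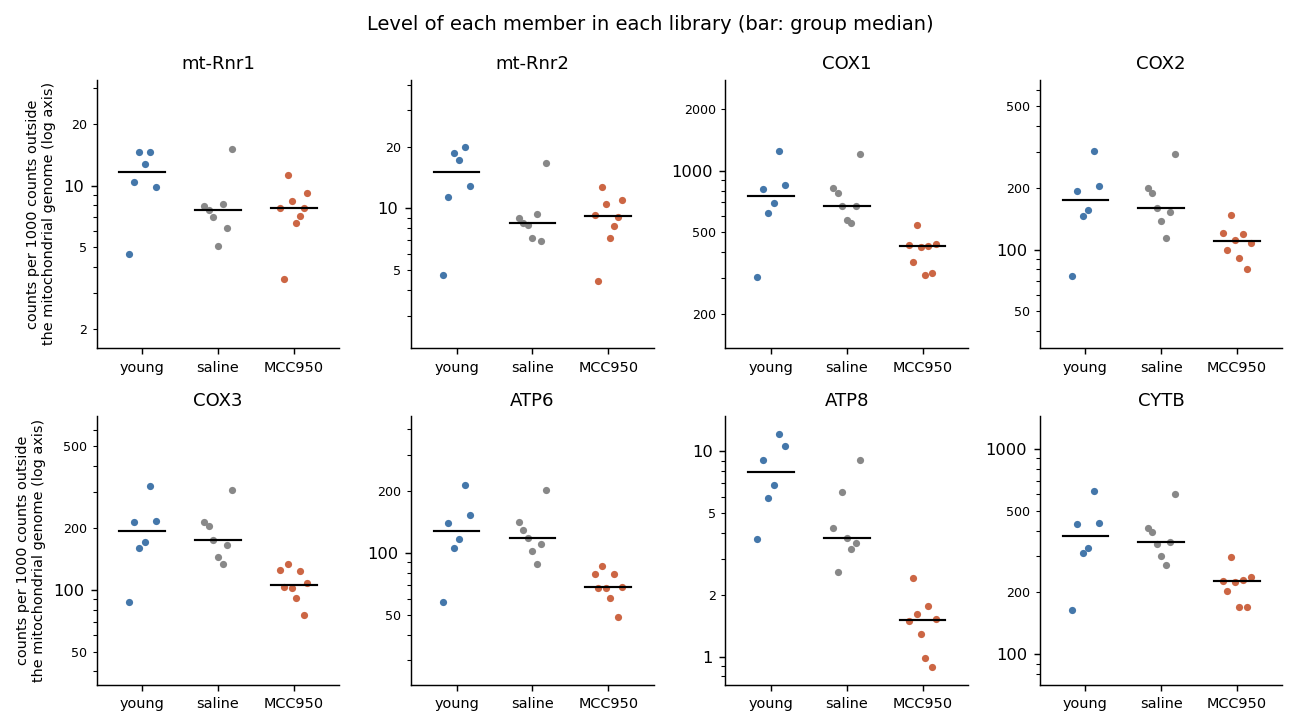
Counts of each of the 8 genes per 1000 counts outside the mitochondrial genome (log axis, each panel spanning the same number of fold), with 1 point per library and a bar at the group median. The MCC950-treated points lie low in the 6 mRNAs, with a COX1 median of 428 against 674 in saline-treated libraries, and overlap the other groups in mt-Rnr1 and mt-Rnr2.

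The comparison of middle-aged saline-treated with young mice addressed age. None of the 8 genes passed an adjusted p of 0.05 (edgeR quasi-likelihood test with Benjamini-Hochberg adjustment over all genes tested), against 24.6% of the 16377 genes tested. At an unadjusted p under 0.05 the count was 1, ATP8, and DESeq2 called 1 gene, also ATP8. Of all 16377 genes tested, 3152 were higher and 2897 lower at that unadjusted p. DESeq2 called 2119 of them higher and 2507 lower. The log2 fold changes of COX1 (0.06, SE 0.31), COX2 (0.04, SE 0.28), COX3 (0.03, SE 0.27), ATP6 (0.01, SE 0.26) and CYTB (0.06, SE 0.28) were far smaller than their errors, with edgeR adjusted p from 0.904 for CYTB to 0.985 for ATP6. Larger in size were the values of -0.39 (SE 0.27, edgeR adjusted p = 0.306) for mt-Rnr1, -0.53 (SE 0.28, edgeR adjusted p = 0.172) for mt-Rnr2 and -0.73 (SE 0.29, edgeR adjusted p = 0.0725) for ATP8. The values of these 5 mRNAs turned negative without young replicate 1 or without saline replicate 7. The median over the 8 genes was 0.02, as over all genes tested. In log2 CPM, the logarithm of the count scaled to the library, none of the 8 genes separated the 7 saline-treated from the 6 young libraries, where 9.37% of all genes did in either direction. The fold change of ATP8 passed without young replicate 1 (-0.87, edgeR adjusted p = 0.0307) and without saline replicate 7 (-0.96, edgeR adjusted p = 0.0145), and that of mt-Rnr2 without young replicate 1 (-0.71, edgeR adjusted p = 0.0366). Leaving out other single libraries raised the edgeR adjusted p to as much as 0.167 for ATP8 and 0.330 for mt-Rnr2. The log2 fold changes then came as near to 0 as -0.57 and -0.41.

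Ratios of 2 genes within a library need no scaling, and 3 of them were compared between saline-treated and young mice by exact two-sided permutation tests, with p adjusted over the 3 (Benjamini-Hochberg). They compare a ribosomal with a messenger RNA, the 2 rRNAs with each other, and the 2 genes on 1 mRNA. mt-Rnr2 had 1.39 (lowest), 1.58 (median) and 3.01 (highest) counts per 100 COX1 counts in young and 1.03, 1.23 and 1.70 in saline-treated libraries. In 6 of the 7 saline-treated libraries the ratio was below every young library. The mean log2 ratio was lower by 0.58 in saline-treated mice (log2 difference -0.58, SE 0.21, 0.670-fold, exact permutation p = 0.0105, adjusted p = 0.0157). Taken as a difference of medians it was -0.36 with an exact permutation p of 0.0851, and 2 young libraries, replicates 3 and 4, lay well above the other 4 (3.01 and 2.47 against at most 1.60).

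mt-Rnr2 had 103, 129 and 136 counts per 100 mt-Rnr1 counts in young, 110, 112.8 and 142 in saline-treated and 109.4, 118 and 127 in MCC950-treated libraries. The ratio in saline-treated mice differed from that in young mice by less than the spread between libraries (log2 difference -0.07, SE 0.08, exact permutation p = 0.403, adjusted p = 0.403). The 2 rRNAs, which lie next to each other on the precursor, overlapped in this ratio in all 3 groups.

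ATP8 had 5.59, 6.13 and 6.93 counts per 100 ATP6 counts in young, 2.00, 3.69 and 5.37 in saline-treated and 1.63, 1.90 and 3.56 in MCC950-treated libraries. Young and saline-treated libraries did not overlap. The log2 difference of saline-treated from young mice was -0.81 (SE 0.18, 0.571-fold, exact permutation p = 0.00117, the smallest that 6 against 7 allows, adjusted p = 0.00350). All 8 MCC950-treated libraries were also below all young ones (log2 difference -1.56, SE 0.13, 0.339-fold), and 5 of the 8 were below all saline-treated ones (-0.75, SE 0.21, 0.594-fold). The highest MCC950-treated library was replicate 2, at 3.56 against 1.63 to 2.22 in the other 7. Without it the range of the MCC950-treated libraries overlapped that of the saline-treated ones through saline replicate 2 alone.

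Another overlapping pair of coding sequences in this genome, ND4L and ND4, served for comparison. ND4L had 9.28 to 10.1 counts per 100 ND4 counts in young, 10.4 to 11.3 in saline-treated and 6.64 to 9.61 in MCC950-treated libraries. The saline-treated libraries were all above the young ones, where those of ATP8 to ATP6 were all below, and the MCC950-treated libraries were all below the saline-treated ones. These differences were not tested. ATP8 is also the shortest of the 15 genes. Among 331 nuclear genes whose longest GENCODE transcript is under 400 bases the median change (log2) was 1.11 in saline-treated against young mice and -0.12 in MCC950-treated against saline-treated mice, while for the 14357 genes with at least 1000 bases it was 0.00 in both. The length classes were not matched for kind of gene or for the cells that express them, and 3 of 5 B and plasma cell markers were higher with age. Whether the length of the RNA has a part in the values of ATP8 was not tested.

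**Figure D3:**
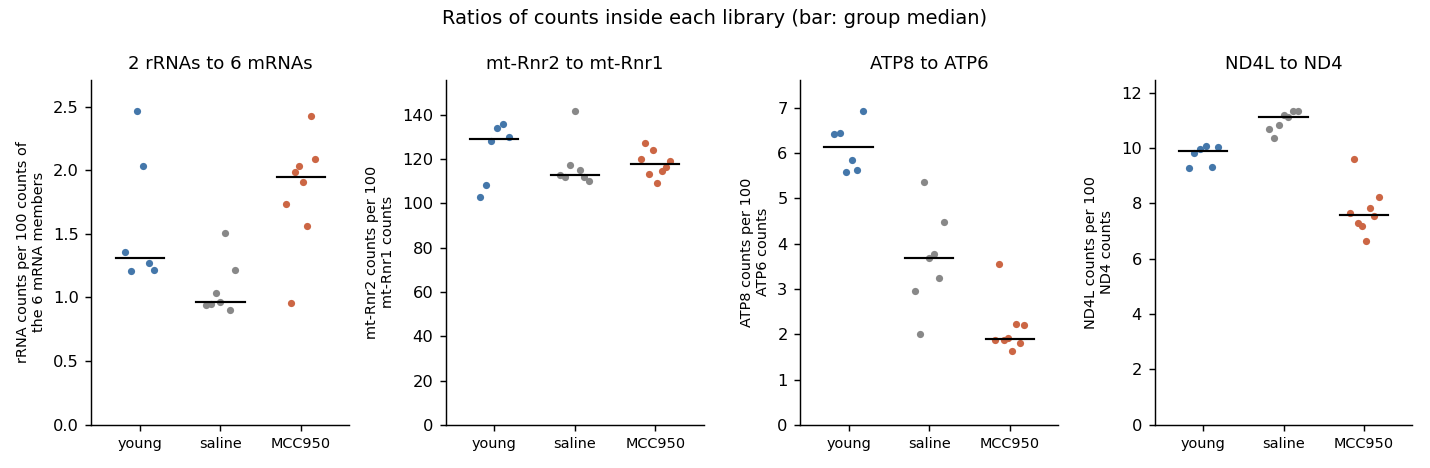
Count ratios inside each library (linear axes from 0), with 1 point per library and a bar at the group median. The ratio of rRNA to mRNA has its lowest median in saline-treated libraries (0.967 per 100), mt-Rnr2 to mt-Rnr1 overlaps in all groups, and ATP8 to ATP6 has group medians of 6.13 in young, 3.69 in saline-treated and 1.90 in MCC950-treated libraries.

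The comparison of MCC950-treated with saline-treated mice addressed inhibition of NLRP3 in middle age. The log2 fold changes of the mRNAs were -0.80 (SE 0.29) for COX1, -0.60 (SE 0.26) for COX2, -0.74 (SE 0.25) for COX3, -0.78 (SE 0.24) for ATP6, -1.56 (SE 0.27) for ATP8 and -0.71 (SE 0.26) for CYTB. Those of the rRNAs were 0.01 (SE 0.25) for mt-Rnr1 and 0.04 (SE 0.26) for mt-Rnr2. The median was -0.76 over the 6 mRNAs and 0.03 over the 2 rRNAs, beside 0.00 over all genes tested. Of the 8 genes 3 were called lower by edgeR, namely COX3, ATP6 and ATP8, where 4.86% of all genes tested were called lower. DESeq2 called all 6 mRNAs, where it called 1250 of all 16377 genes tested lower. As the genes were chosen for this comparison, nothing is read from the count. In log2 CPM ATP8 was the only one of the 8 that had all MCC950-treated libraries below all saline-treated ones, as did 0.586% of all genes.

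**Figure D4:**
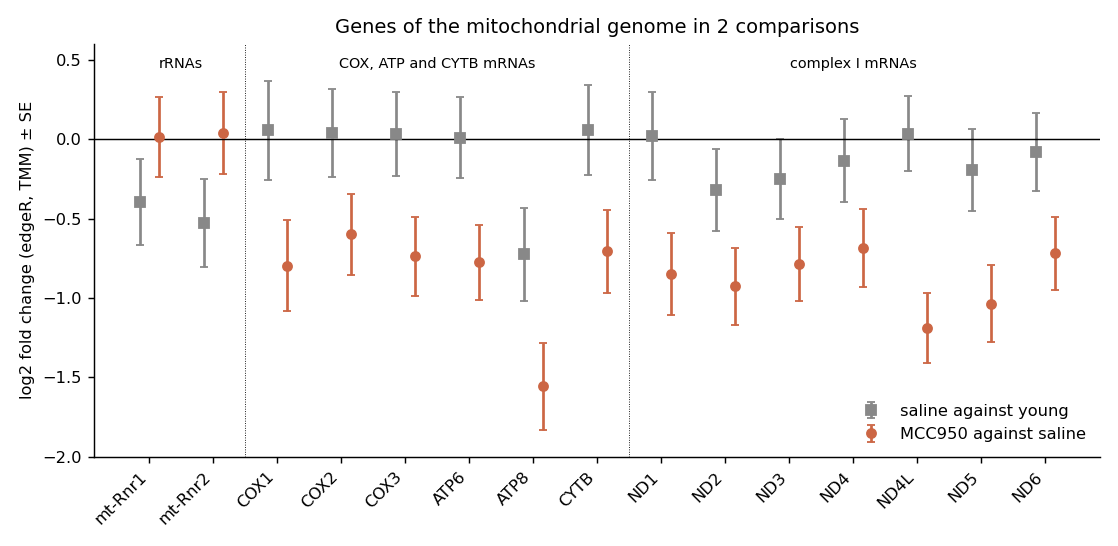
Log2 fold change with its standard error for the 15 genes of the mitochondrial genome in saline-treated against young mice (squares) and MCC950-treated against saline-treated mice (circles). In the second comparison the rRNAs lie at 0.01 and 0.04 while the mRNAs lie between -0.60 and -1.56, and in the first ATP8 (-0.73) and the rRNAs (-0.39 and -0.53) are the lowest.

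Ribosomal and messenger RNAs were also set against each other within each library. The 2 rRNAs had 1.21 (lowest), 1.31 (median) and 2.46 (highest) counts per 100 counts of the 6 mRNAs in young, 0.901, 0.967 and 1.51 in saline-treated and 0.956, 1.95 and 2.43 in MCC950-treated libraries. In 7 of the 8 MCC950-treated libraries the ratio was above all saline-treated ones, and the eighth, replicate 2, lay among them. The log2 difference was 0.75 (SE 0.18, 1.68-fold) and was 0.88 without MCC950 replicate 2. Against young mice the log2 difference was 0.22 (SE 0.23), within the spread of the young libraries.

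The size of the values depended on the scale. With no scaling beyond the total count, which moved the median of all genes to 0.42, the log2 fold changes were 0.49 for mt-Rnr1 and 0.50 for mt-Rnr2, close to that shift, while the mRNAs lay between -0.13 for COX2 and -1.08 for ATP8. On either scale the mRNAs were below the median gene and the rRNAs near it. With the mean log2 CPM of the proximal tubule markers as a covariate, ATP8 alone remained called (-1.38). The same fit called 340 of all 16377 genes tested lower. Of the 14 proximal tubule markers, MCC950-treated mice had 6 higher and 0 lower (edgeR adjusted p under 0.05), the median over the list being 0.68 in log2, and of the 12 podocyte markers 4 were higher and 0 lower. The part of these cells in the values of the 8 genes was not tested further.

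MCC950-treated mice were also compared with young mice, a comparison that shares its libraries with the other 2. The log2 fold changes were -0.38 (SE 0.26) for mt-Rnr1, -0.49 (SE 0.27) for mt-Rnr2, -0.74 (SE 0.30) for COX1, -0.56 (SE 0.27) for COX2, -0.70 (SE 0.26) for COX3, -0.77 (SE 0.25) for ATP6, -0.65 (SE 0.27) for CYTB and -2.28 (SE 0.29) for ATP8. For ATP8 this is 0.206-fold, and all 8 MCC950-treated libraries were below all 6 young ones, as in 4.66% of all genes. COX3, ATP6 and ATP8 were called lower, where 16.5% of all genes were.

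The mRNAs other than ATP8 kept close proportions to each other. Over the 21 libraries the SD of the log2 ratio was 0.04 for COX3 and ATP6, which are neighbours on the precursor with no transfer RNA between them, and 0.06 for COX1 and CYTB. It was 0.12 for mt-Rnr1 and mt-Rnr2, 0.49 for mt-Rnr2 and COX1, and 0.73 for ATP8 and ATP6. Small shifts in proportion were still seen with MCC950. COX2 had 24.6 to 29.4 counts per 100 COX1 counts in MCC950-treated libraries against 20.5 to 24.3 in saline-treated and 22.5 to 24.3 in young ones, with no overlap. CYTB had 52.5 to 56.6 counts per 100 COX1 counts in MCC950-treated against 49.2 to 52.4 in saline-treated libraries, also with no overlap, and 47.2 to 53.6 in young ones. COX3 (23.9 to 29.4 in MCC950-treated against 24.1 to 26.2 in saline-treated) and ATP6 (15.5 to 19.4 against 16.0 to 17.7) overlapped and were more spread with MCC950.

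As a description of likeness across the 21 libraries, the log2 CPM of COX1 had a Pearson r of 0.98 with COX2, 0.99 with COX3, 0.98 with ATP6, 1.00 with CYTB, 0.77 with ATP8, 0.61 with mt-Rnr2 and 0.59 with mt-Rnr1. All these values share the depth and the scaling of their library. Outside the mitochondrial genome the genes most like COX1 included Mlkl (r = 0.77), which encodes the executor of necroptosis, Zfp81 (0.74), Prpf39 (0.73), a splicing factor, and Brd9 (0.71), a chromatin remodelling subunit. The 5 most like mt-Rnr2 were Rprm (0.72), Actn2 (0.72), a muscle-type actinin, Trmt1l (0.69), Zfp638 (0.69) and Ap1s3 (0.67), all below its r of 0.98 with mt-Rnr1. These nuclear genes were picked as the highest of very many, which by itself favours large values, and no r was tested. Within groups the r with COX1 was 0.74 for Mlkl, 0.61 for Zfp81, 0.52 for Prpf39 and 0.59 for Brd9. With mt-Rnr2 it was 0.63 (Ap1s3) to 0.78 (Trmt1l). mt-Rnr2 had an r of 0.38 with ATP8, the lowest between it and another of the 8 genes.

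The nuclear genes that act with the 8 genes were taken from lists of the pathway. Of the nuclear subunits of complex III, MCC950-treated mice had 8 of 8 tested higher (edgeR adjusted p under 0.05 against saline), as were 10 of 16 of complex IV and 14 of 18 of complex V, where 11.9% of all genes tested were higher, and none of these subunits was lower. The median log2 fold changes were 0.41, 0.45 and 0.40, against -0.76 for the mitochondrial mRNAs of the same complexes. Examples were Uqcr10 (0.56, SE 0.14) and Uqcrq (0.51, SE 0.11), small subunits of complex III, Cox5a (0.66, SE 0.17) and Cox6a1 (0.53, SE 0.13) of complex IV, and Atp5d (0.58, SE 0.14), a subunit of the central stalk of ATP synthase, and Atpif1 (0.51, SE 0.13), which inhibits the reverse reaction of that enzyme. With the proximal tubule score as a covariate 464 of all 16377 genes tested were higher and 340 lower. Of the subunits, 0 of complex III, 0 of complex IV and 0 of complex V were called higher with it. Leaving out single libraries took the counts down to 5 for complex III (without saline replicate 4), 5 for complex IV and 7 for complex V. The count for complex IV was 5 or 6 without saline replicates 2, 3 or 4 or MCC950 replicates 1, 4 or 5, and that for complex V was 7 to 9 without any of these or without saline replicate 7 or MCC950 replicate 3. Over all genes tested the number called higher fell as well, from 1957 in the main fit to between 1008 and 1563 without any of these libraries. The mRNAs of the 7 complex I genes of the mitochondrial genome had 6 of 7 lower, where 4.86% of all genes tested were lower, and a median of -0.85, led by ND4L (-1.19, SE 0.22) and ND5 (-1.04, SE 0.24). They are part of the mitochondrial share that had been seen to be lower with MCC950, so nothing is read from their count. The count was 3 without saline replicate 7 or MCC950 replicate 5, 2 with the replicate block and 1 with the proximal tubule score. Among all genes tested 796 were lower in the main fit and 904 with the replicate block. Without saline replicate 7 there were 667, and without MCC950 replicate 5 there were 584.

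Of the factors for assembly of complex IV, 8 of 18 were higher with MCC950 and 0 lower, where 11.9% of all genes tested were higher and 4.86% lower, including Coa6 (0.55, SE 0.14) and Cox19 (0.46, SE 0.10), both of which serve copper delivery. Of 16 genes for transcription and maintenance of mitochondrial DNA, 3 were higher and 0 lower, with Top1mt, the mitochondrial topoisomerase, at 0.82 (SE 0.13) and Mgme1, an exonuclease of the replisome, at 0.39 (SE 0.11). Among 19 genes for processing, stability and decay of mitochondrial RNA 4 were higher, with Lactb2, a ribonuclease, at 0.83 (SE 0.20) and Lrpprc, which keeps the mRNAs stable and polyadenylated, at 0.39 (SE 0.10), and 1 was lower, Angel2 (-0.19, SE 0.06). For the rRNAs, 6 of 16 genes of rRNA modification and ribosome assembly were higher and 0 lower, with Mrpl12 at 0.58 (SE 0.13) and the methyltransferase Mrm2 at 0.41 (SE 0.11). The shares of the transcription genes called higher and of the RNA processing genes called lower are near those of all genes. Without saline replicate 4 the counts called higher were 4 for assembly, 1 for transcription, 2 for RNA processing and 2 for rRNA modification, and without saline replicate 3 they were 4 for assembly, 2 for RNA processing and 3 for rRNA modification. The count for assembly was also 4 or 5 without saline replicates 2 or 6 or MCC950 replicates 3 or 5, and that for transcription 1 without saline replicates 6 or 7. Of all genes tested, 1957 were called higher in the main fit, 1008 without saline replicate 4 and 1149 without saline replicate 3. Without any of the other libraries named here there were 1287 to 1526. The call of Angel2 was lost without saline replicates 2 or 5 or MCC950 replicates 1, 3, 4, 6 or 8. Over all these lists, the complex I genes of the mitochondrial genome included, 60 genes were called in either direction, and with the proximal tubule score as a covariate 3 were. With that covariate 464 of all 16377 genes tested were higher and 340 lower.

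With age few of these genes passed the test, where 12.2% of all genes tested were higher and 12.4% lower in saline-treated mice. No nuclear subunit of complex III or V was called in either direction by edgeR or by DESeq2, and at an unadjusted p under 0.05 in edgeR there were 0 of 8 for complex III and 3 of 18 for complex V. At that unadjusted p 3152 of all 16377 genes tested were higher and 2897 lower. DESeq2 called 2119 of all genes higher and 2507 lower. Of complex IV, 1 of 16 was higher, Cox7a2l (0.31, SE 0.09, edgeR adjusted p = 0.0143), and 1 was lower, Cox4i2 (-1.30, SE 0.40, edgeR adjusted p = 0.0202), an isoform known from lung and vascular cells. Cox4i2 had a median of 1.36 counts per 1000000 counts outside the mitochondrial genome in young and 0.557 in saline-treated libraries. The 6 endothelial markers had 6 of 6 lower in the same comparison, the median being -1.07 in log2, and the part of these cells in Cox4i2 was not tested. Among the assembly factors of complex IV, Pet100 was higher (0.45, SE 0.13, edgeR adjusted p = 0.0163) and Cox10, which makes the haem of the enzyme, lower (-0.27, SE 0.10, edgeR adjusted p = 0.0461). The call of Cox10 was lost without young replicates 1, 3, 4 or 5 or saline replicates 3, 4 or 5, and under total counts, with either other filter, with the replicate block and with either marker score. The call of Cox4i2 was lost without young replicate 5.

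Among the genes that act on mitochondrial DNA and RNA, Top1mt was lower with age (-0.56, SE 0.14, edgeR adjusted p = 0.00699), with medians of 18.3 counts per 1000000 counts outside the mitochondrial genome in young, 12.2 in saline-treated and 22.2 in MCC950-treated libraries. It was 1 of 16 transcription and maintenance genes called lower, with 0 higher. Of 19 RNA processing genes 2 were higher, Tbrg4 (0.19, SE 0.07) and Angel2 (0.21, SE 0.07), and 0 lower. Of 16 genes for rRNA modification 2 were higher and 0 lower. These were Mrm1 (0.34, SE 0.08), a methyltransferase of the large rRNA, and Rpusd4 (0.29, SE 0.08), a pseudouridine synthase. Of all genes tested 12.2% were higher and 12.4% lower, so the shares of the RNA processing and rRNA modification genes called higher are near that of all genes. The count for RNA processing was 0 without young replicates 2 or 3 or saline replicates 2 or 5 and 1 without young replicate 4 or saline replicates 1, 6 or 7, and that for rRNA modification was 1 without young replicate 2 or saline replicate 2. Over all genes tested 1996 were higher in the main fit and 1353 to 1876 without any of these libraries. Of the cell markers, 11 of 12 for podocytes and 5 of 6 for mesangium and smooth muscle were lower in saline-treated mice, and 3 of 5 for B and plasma cells and 2 of 6 for macrophages were higher, and their part in these values was not tested gene by gene. With the podocyte score as a covariate none of the listed genes was called with age by edgeR, where 13 genes were higher and 1 lower of all genes tested. The mean of that score was 5.33 (SD 0.55) in young and 3.45 (SD 0.48) in saline-treated libraries, so this fit can hardly tell it from age.

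**Figure D5:**
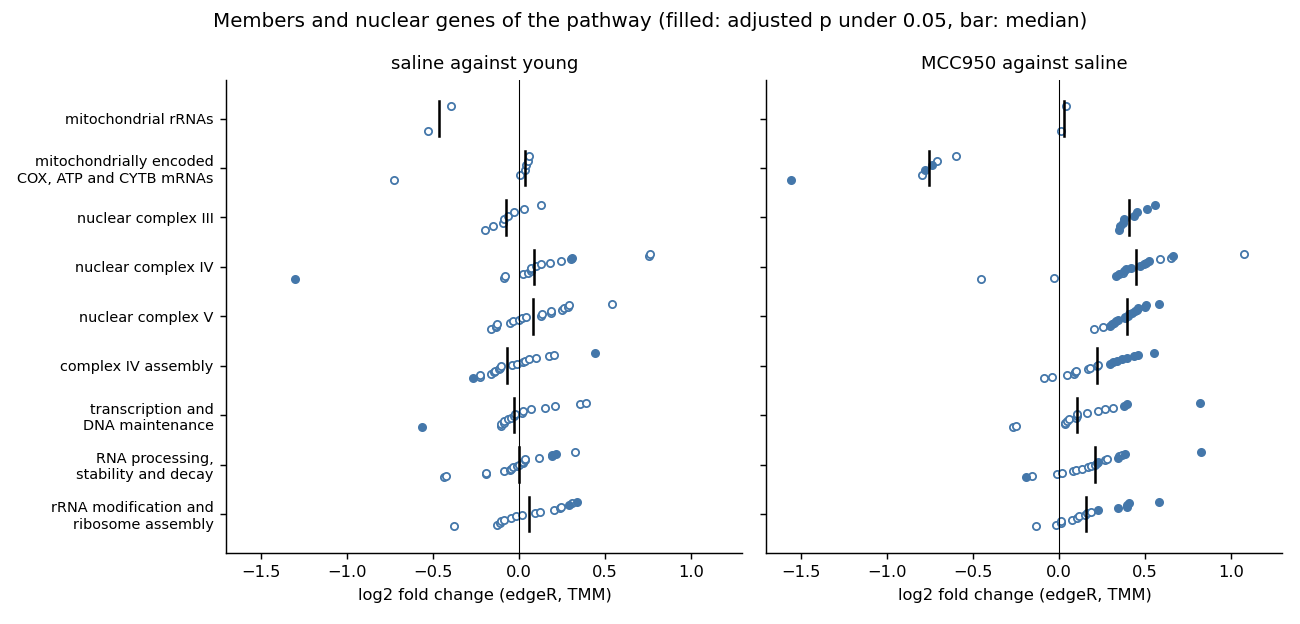
Log2 fold changes of the 2 rRNAs, the 6 mRNAs and the listed nuclear genes in saline-treated against young mice (left) and MCC950-treated against saline-treated mice (right), with 1 point per gene, filled at an edgeR adjusted p under 0.05, and a bar at the median. On the right the nuclear subunits of complexes III, IV and V have medians of 0.41, 0.45 and 0.40 while the mitochondrial mRNAs have -0.76 and the rRNAs 0.03.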

How the data were processed

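The authors trimmed the reads (Trim Galore), aligned them to mm10 (Bowtie2) and counted reads per gene (featureCounts). The deposited per-library tables hold these raw counts, whole numbers for 27179 genes by Entrez number, and a table normalized by the authors was not used. Versions, annotation, strand and multi-mapping settings are not given in the sources used here. RefSeq (GRCm38.p6) named 25275 genes. No 2 libraries of a group were duplicates, by a chi-square test of their counts.

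Samples were grouped by their labels. edgeR 4.0.16 in R 4.3.3 (TMM, filterByExpr, quasi-likelihood test, Benjamini-Hochberg adjustment over 16377 genes) fitted all 3 groups together. log2 CPM used a prior count of 2. DESeq2 1.42.0 was an alternative, with other scalings, filters, covariates and libraries left out. Ratios were tested by exact permutation (scipy 1.17.1, Python 3.11.15). The workflow was tested on simulated data. Sequences came from GENCODE M21, aligned with Biopython.

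The members and lists were chosen with earlier results of these data known. Named were the 8 members, up to 2 genes with the largest called fold change per direction, list and comparison (age, and MCC950 against saline), and the 5 genes most correlated with COX1 or mt-Rnr2, 1 of which is not reported here. Each library is from a separate mouse. The lowest count of a member in any library was 23807 (ATP8), so counting error is small beside the spread between mice.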

Additional observations from a re-analysis of the deposited data

Results flagged for a closer look

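In 5 of 36 combinations of a value and a group, 1 library stood apart from the rest of its group by Dixon's criterion, which chance meets in about 1 of 20 groups. For mt-Rnr1 in log2 CPM these were young replicate 1 (10.58, the others 11.65 to 12.22) and MCC950 replicate 2 (10.29, the others 11.24 to 11.96). For mt-Rnr2 it was saline replicate 7 (12.44 log2 CPM, the others 11.18 to 11.64). The log2 ratio of mt-Rnr2 to mt-Rnr1 was 0.50 in saline replicate 4 and 0.14 to 0.23 in the other saline-treated libraries. The log2 ratio of ATP8 to ATP6 was -4.81 in MCC950 replicate 2 and -5.94 to -5.50 in the other MCC950-treated libraries. MCC950 replicate 2 thus stood apart towards the saline-treated group in ATP8 to ATP6, and its share of rRNA (0.362% of the counts) was the lowest of all 21 libraries. The cause was not tested.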

How the results depend on the processing

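Of the 8 genes 0 were called with age, but 1 under scaling by total counts and 1 with DESeq2 (ATP8 in both), and 0 to 2 on leaving out single libraries. With MCC950 3 were called lower, against 1 with no filter, 1 with either marker score as a covariate and 1 with the replicate block (ATP8 in each), 5 with only the 2 groups compared, 6 with DESeq2, and 1 to 4 on leaving out single libraries (1 without saline replicate 7, MCC950 replicate 4 or MCC950 replicate 5). Listed pathway genes called with age numbered 9, against 2 under total counts, 18 with the proximal tubule score, 0 with the podocyte score and 6 to 14 without single libraries (14 without young replicate 6). Of all 16377 genes tested, 1996 were higher and 2038 lower with age in the main fit. These were 785 and 851 under total counts and 2119 and 2507 with DESeq2. They were 2711 and 2268 with the proximal tubule score and 13 and 1 with the podocyte score. Without young replicate 3 they were 1353 and 1638, and they were 2270 and 2403 without young replicate 6. The podocyte score differed so far between young and saline-treated libraries that its fit can hardly tell it from age. Listed pathway genes called with MCC950 against saline numbered 60, against 97 under total counts, 3 with the proximal tubule score and 33 to 66 without single libraries (33 without saline replicate 4, 36 without saline replicate 3, 37 without MCC950 replicate 5 and 39 without MCC950 replicate 1), and against young 63, with 34 and 0 under the proximal tubule and podocyte scores and 45 to 71 without single libraries. Of all 16377 genes tested, 1957 were higher and 796 lower with MCC950 against saline in the main fit. These were 6397 and 59 under total counts and 464 and 340 with the proximal tubule score. They were 2200 and 1250 with DESeq2, 2690 and 1270 with the podocyte score and 2381 and 904 with the replicate block. With no filter they were 1766 and 606 of 21934, and with only the 2 groups compared 1984 and 1076 of 16191. Without saline replicate 4 they were 1008 and 515, and they were 1149 and 596 without saline replicate 3. Without MCC950 replicate 5 they were 1367 and 584, and they were 1338 and 541 without MCC950 replicate 1. Against young, 3572 genes were higher and 2705 lower in the main fit. These were 3714 and 2704 with the proximal tubule score and 88 and 199 with the podocyte score. The log2 ratio of mt-Rnr2 to COX1 with age stayed between -0.66 and -0.44 without single libraries (exact permutation p 0.00217 to 0.0227), but was -0.36 by medians (exact permutation p = 0.0851) and -0.61 with the replicate block (exact sign-flip permutation p = 0.0625, where 6 pairs cannot go below 0.0312). That of ATP8 to ATP6 was -0.91 to -0.67 without single libraries and -0.87 with the replicate block. The ratio of mt-Rnr2 to mt-Rnr1 stayed above 0.05 in p under each alternative run. The log2 ratio of rRNA to mRNA counts, MCC950 against saline, was 0.69 to 0.88 without single libraries. Libraries share only a number: same-numbered libraries correlated at -0.06 to 0.35 with age and -0.14 to 0.33 with MCC950. The cause of these changes was not tested, and the values of the uncalled genes changed sign around 0 under several settings. Adding counts of the nuclear copies was not run, since no row names them.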
